A study of Canis lupus familiaris with 55 samples.

Results

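The platelet-derived growth factor (PDGF) ligands and receptors were followed through canine embryonic gonads. The genes were taken by name: every locus of the guided transcript assembly whose gene name was *PDGFA*, *PDGFB*, *PDGFC*, *PDGFD*, *PDGFRA* or *PDGFRB*, which gave 6 loci, 1 for each name, of 58781 in the table. The rule used names alone, although the genes were chosen with earlier results of these data known. RNA-seq had been used by the study to compare gonads from a pedigree with XX DSD, a disorder of sex development in which *SRY*-negative dogs develop testes or ovotestes, with gonads of normal embryos of both sexes. The values are FPKM, read counts scaled by transcript length and by the size of the library, so levels of different genes can be set side by side per unit of length.

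The XX DSD gonads at risk, also called XX DSD gonads here, came from a pedigree of mixed American cocker spaniel and beagle background. These embryos were *SRY*-negative and carried 1 or 2 copies of a guanine insertion on chromosome 9: 9 embryos of d35 from 4 litters (4 homozygous, 5 heterozygous), 8 of d37-39 from 4 litters (6 homozygous, 2 heterozygous) and 6 of d41-44 from 4 litters (6 homozygous). The XX age-matched controls were *SRY*-negative wild type embryos of beagle parents, 6 of d37-39 from 2 litters and 3 of d44 from 1 litter. The XY littermate controls were *SRY*-positive embryos of the at-risk pedigree that carried the insertion as well: 4 of d35 from 2 litters (3 homozygous, 1 heterozygous), 5 of d37-39 from 4 litters (5 homozygous) and 3 of d41-42 from 2 litters (1 homozygous, 2 heterozygous). The XY age-matched controls, *SRY*-positive and wild type, numbered 6 of d37-39 and 3 of d44 and were littermates of the XX controls. Each of these 53 libraries held the paired gonads of 1 embryo. A further XX and XY library held pooled control gonads of d34, from 6 and 7 embryos. No gonad had histology, so which of the at-risk gonads would have become a testis, an ovotestis or an ovary is unknown. Insertion, pedigree and breed background, and at the oldest age also embryonic day and litter, cannot be told apart between at-risk and control groups. By the study's account, libraries were also pooled for sequencing by group, at-risk or control, so sequencing pool is a further such factor.

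PDGFs are dimers of secreted chains that bind receptor tyrosine kinases on neighbouring cells. *PDGFA* and *PDGFB* encode chains that furin-type convertases cut before secretion, whereas the *PDGFC* and *PDGFD* chains leave the cell inactive and are cut by proteases outside it. The *PDGFRA* receptor is bound by A, B and C chains, and the *PDGFRB* receptor by B and D chains. In the mouse gonad, *PDGFRA* is needed in the XY embryo for testis cords, for the vessels that divide the cord-forming tissue and for fetal Leydig cells, and in vessels generally, PDGF-B of the endothelium draws in *PDGFRB*-bearing mural cells.

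All of the genes were expressed above 1 FPKM in all 53 single-embryo libraries. *PDGFC* was the most abundant ligand, with 32.9 to 101 FPKM (median 64.6), and *PDGFA* followed at 5.37 to 53.3 FPKM (median 17.4). *PDGFD* had 2.97 to 11.8 FPKM (median 5.38) and *PDGFB* 1.10 to 7.78 FPKM (median 4.2), so the ranges of the 2 low ligands overlapped, as did those of the receptors, *PDGFRA* at 15.9 to 69.2 FPKM (median 35.2) and *PDGFRB* at 15.2 to 60.6 FPKM (median 35). *PDGFA* varied most, 9.94-fold between its lowest and highest library. In CanFam3, *PDGFA* lies on the plus strand of chromosome 6 (16270189 to 16293442, 10 assembled transcripts), *PDGFB* on the plus strand of chromosome 10 (25797848 to 25821765, 9 transcripts) and *PDGFD* on the plus strand of chromosome 5 (27863727 to 28094382, 8 transcripts). *PDGFC* lies on the minus strand of chromosome 15 (54138271 to 54344138, 13 transcripts), *PDGFRA* on the plus strand of chromosome 13 (46726211 to 46776044, 23 transcripts) and *PDGFRB* on the plus strand of chromosome 4 (58925737 to 58966380, 19 transcripts). *PDGFC* shares 77 exon bases with an unnamed locus of the other strand that had at most 1.87 FPKM, and the libraries did not keep strand, so reads of those bases cannot be told apart.

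The libraries were checked against the labels through marker genes. The summed level of 8 genes of pre-granulosa cells, the supporting cells of the ovary, was 60.7 to 227 FPKM in the XX single embryos and 9.09 to 27.5 FPKM in the XY single embryos, without overlap, whereas the d34 pools did not differ in this way (93.0 FPKM in the XX pool and 86.5 FPKM in the XY pool). Markers of mesonephros and kidney summed to at most 9.10 FPKM and those of the adrenal to at most 11.3 FPKM in single embryos, and 4 measured platelet genes, a possible source of stored PDGF, to at most 5.24 FPKM. Relative depth, with the deepest library at 1, was 0.15 in the XY pool and 0.174 to 1 in the others. At d41-44 it was 0.240 to 0.299 in XX DSD gonads at risk, against 0.616 to 0.859 in XX controls, and 0.254 to 0.291 in XY littermates, against 0.406 to 0.591 in XY controls. Within groups, libraries had r = 0.956 to 0.992 over loci and no pair was identical. The d35 XX DSD library C3575 stood apart, with the lowest *PDGFB* (1.10 FPKM) and *PDGFRB* (15.2 FPKM) and the highest *PDGFD* (11.8 FPKM) of all single embryos.

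**Figure D1:**
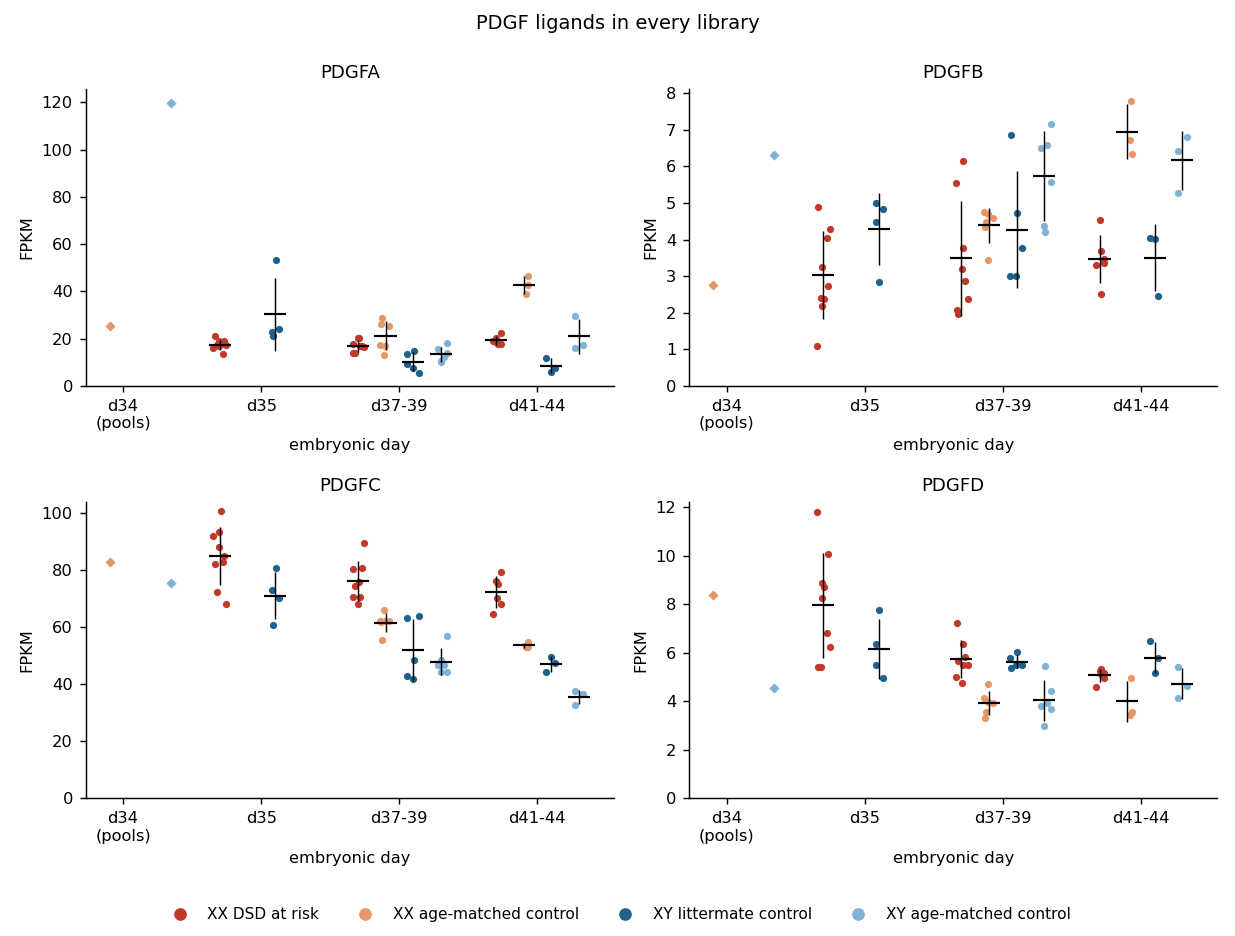
FPKM (vertical axes, linear, from 0) of *PDGFA*, *PDGFB*, *PDGFC* and *PDGFD* in every library by embryonic day (horizontal axes), 1 point per library (diamonds for the d34 pools) coloured by group, with horizontal bars at the group means and vertical bars of 1 SD. *PDGFC* lies at 64.6 to 101 FPKM in the 23 XX DSD libraries and *PDGFA* at 38.8 to 46.5 FPKM in the 3 XX controls of d44.

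At d37-39, *PDGFC* and *PDGFD*, the ligands cut outside the cell, were higher in the at-risk XX gonads than in XX controls, and the other 4 genes did not pass the test. *PDGFC* was 68.4 to 89.6 FPKM (median 75.3) in 8 XX DSD gonads, against 55.5 to 66.0 FPKM (median 62.2) in 6 XX controls. *PDGFD* was 4.74 to 7.23 FPKM (median 5.58) in XX DSD gonads and 3.32 to 4.72 FPKM (median 3.96) in XX controls. The lowest XX DSD library thus lay above the highest control for both genes, although the *PDGFD* ranges nearly met, and 6.23% of all loci did not overlap in either direction. On the log2(FPKM + 1) scale *PDGFC* was higher by 0.30 ± 0.063 (SE; limma, Benjamini-Hochberg adjusted p = 0.006) and *PDGFD* by 0.44 ± 0.092 (adjusted p = 0.00553), where log2 differences of low genes are understated. An exact permutation test over libraries gave p = 0.000333 for each, the smallest possible with 8 and 6 libraries (two-sided). Of all 25231 loci tested, 13.8% were called at an adjusted p under 0.05, and the median difference of all loci was 0.09. When each litter entered as 1 value, *PDGFC* and *PDGFD* kept differences of 0.33 and 0.44 with adjusted p of 0.338 and 0.365, and 5 loci in all were called.

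The convertase-cut ligands and the receptors overlapped between these groups. *PDGFA* was 13.8 to 20.3 FPKM (median 16.9) in XX DSD gonads, against 13.2 to 28.7 FPKM (median 21.3) in XX controls (log2 difference −0.27, limma adjusted p = 0.328). *PDGFB* was 1.98 to 6.14 FPKM (median 3.03) and 3.43 to 4.76 FPKM (median 4.54) in XX DSD and control gonads (−0.33, limma adjusted p = 0.341). The *PDGFA* controls split by day: the 3 of d39 had 26.1, 28.7 and 25.4 FPKM and the 3 of d37 had 17.0, 17.2 and 13.2 FPKM, each day being 1 litter. Among d39 embryos alone *PDGFA* was lower in XX DSD gonads, by −0.55 on the log2 scale (limma adjusted p = 0.00563), with 6 XX DSD gonads at 16.4 to 20.3 FPKM. *PDGFRA* was 28.3 to 47.4 FPKM in XX DSD gonads and 23.6 to 40.3 FPKM in XX controls (adjusted p = 0.565), and *PDGFRB* 21.8 to 36.1 FPKM in XX DSD gonads and 23.7 to 42.2 FPKM in XX controls (adjusted p = 0.662, both limma).

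In older gonads all of the PDGF genes passed the test, and the change in these differences from the younger age was not tested. In the at-risk XX gonads of d41-44, compared with XX controls of d44, *PDGFA* and *PDGFB* were lower, *PDGFC* and *PDGFD* higher, and of the receptors *PDGFRA* was higher and *PDGFRB* lower. All 6 genes were called, 3 in each direction, in a comparison in which 48.5% of 19420 loci were called and the median difference of all loci was −0.09, so the count itself says little about this family. By size, 7.97% of loci had a larger absolute difference than *PDGFA* and 19.2% a larger one than *PDGFB*, whereas 53.7% to 69.8% exceeded the other 4 genes.

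*PDGFA* was 17.7 to 22.4 FPKM (median 18.7) in 6 XX DSD gonads, against 42.5, 38.8 and 46.5 FPKM in the 3 XX controls, a log2 difference of −1.10 ± 0.085 (limma adjusted p = 1.3e-05). *PDGFB* was 2.52 to 4.54 FPKM (median 3.41) in XX DSD gonads and 6.35, 6.73 and 7.78 FPKM in XX controls (−0.84 ± 0.13, limma adjusted p = 0.000519). Neither ligand overlapped between the groups, nor did 46.7% of all loci. *PDGFC* was 64.6 to 79.6 FPKM (median 72.8) in XX DSD gonads, against 53.2, 53.0 and 54.8 FPKM in XX controls (0.42 ± 0.065, limma adjusted p = 0.000569), again without overlap. *PDGFD* was 4.60 to 5.32 FPKM (median 5.15) in XX DSD gonads and 3.58, 3.46 and 4.98 FPKM in XX controls, the third control lying inside the XX DSD range (0.29 ± 0.096, limma adjusted p = 0.031). The exact permutation test gave p = 0.0119, the smallest possible with 6 and 3 libraries, for *PDGFA*, *PDGFB* and *PDGFC*, and 0.0357 for *PDGFD*.

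Between the receptors the difference ran in opposite directions. *PDGFRA* was 31.0 to 37.9 FPKM (median 34.2) in XX DSD gonads, above the 20.2, 30.4 and 25.4 FPKM of the XX controls (0.44 ± 0.11, limma adjusted p = 0.00942, exact permutation p = 0.0119). *PDGFRB* was 18.8 to 28.4 FPKM (median 21.4) in XX DSD gonads, against 24.2, 38.4 and 30.8 FPKM in XX controls, with overlap (−0.45 ± 0.15, limma adjusted p = 0.0353, exact permutation p = 0.0238). The calls of *PDGFD* and *PDGFRB* were the weak ones: both were lost with litter as a random block (adjusted p of 0.0834 and 0.0797) and without the filter on low values (0.0637 and 0.0689), and that of *PDGFD* without the d41 embryos (0.0913). *PDGFD* lost its call without control A1104 or A1107 (adjusted p of 0.124 and 0.133) or without XX DSD library C3694, C3696, C3517 or C3659 (0.0525 to 0.0547), and *PDGFRB* without control A1107 or A1110 (0.156 and 0.102) or XX DSD library C3517, C3684, C3688 or C3659 (0.0607 to 0.0625). Without control A1107 the *PDGFRB* difference was −0.29, and without control A1104 that of *PDGFRA* was 0.29 (adjusted p = 0.0286). Scaling the libraries to a common median of named loci moved the median of all loci to 0.04, and *PDGFRB* was then not called (−0.31, adjusted p = 0.118).

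At this age most XX DSD gonads were younger than the controls, and 1, C3659, was also of d44. It had 20.4 FPKM of *PDGFA* and 4.54 FPKM of *PDGFB*, inside the range of the younger XX DSD gonads for *PDGFA* and the highest of them for *PDGFB*, and below every control for both. Its *PDGFC* was 76.2 FPKM, above every control, and its *PDGFRB* of 18.8 FPKM was the lowest of all 9 libraries.

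**Figure D2:**
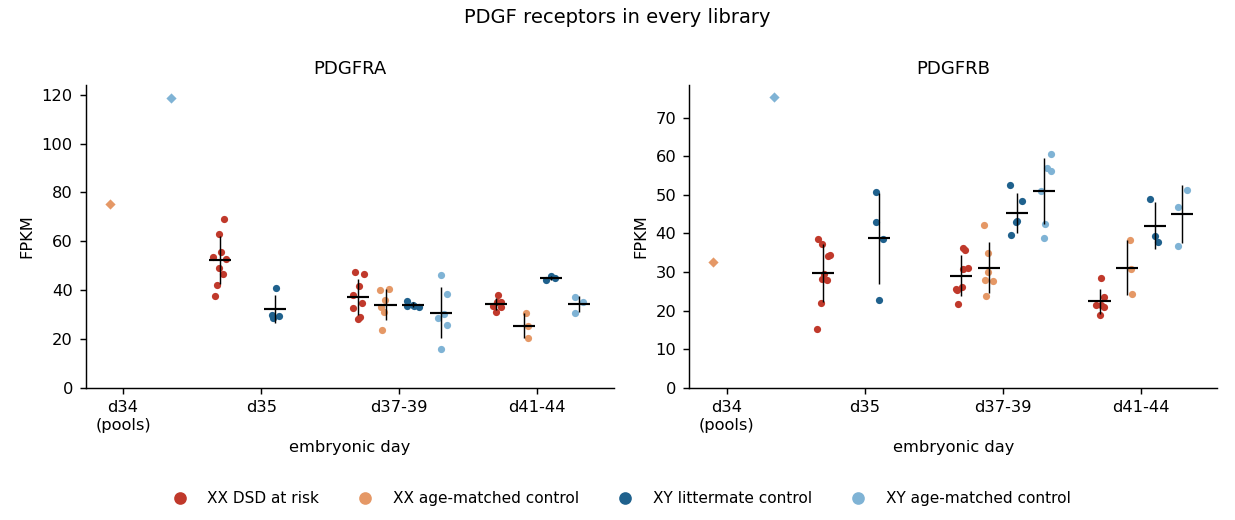
FPKM (vertical axes, linear, from 0) of *PDGFRA* and *PDGFRB* in every library by embryonic day (horizontal axes), 1 point per library (diamonds for the d34 pools) coloured by group, with horizontal bars at the group means and vertical bars of 1 SD. At d41-44 *PDGFRB* averages 22.4 FPKM in XX DSD gonads at risk and 31.1 FPKM in XX controls, and 42 and 45.0 FPKM in XY littermates and XY controls.

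Among XY embryos, littermates of the at-risk pedigree were compared with XY age-matched controls in the same way. At d37-39 none of the 6 genes was called by limma, 1 having an unadjusted p under 0.05, where 1.29% of 32331 loci were called. That gene was *PDGFD*, with 5.49, 5.81, 6.03, 5.49 and 5.38 FPKM in XY littermates, against 2.97 to 5.48 FPKM (median 3.88) in XY controls (log2 difference 0.41, limma adjusted p = 0.187, exact permutation p = 0.00649). The median difference of all loci was 0.35 there, and without control A1095 *PDGFD* was called (0.48, adjusted p = 0.0407).

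At d41-44 again none of the 6 was called by limma, 4 having an unadjusted p under 0.05, where 11.2% of 19137 loci were called. *PDGFA* was 7.75, 11.9 and 5.99 FPKM in XY littermates, against 29.5, 17.4 and 16.2 FPKM in XY controls (log2 difference −1.20, limma adjusted p = 0.0552). *PDGFB* was 2.46, 4.04 and 4.01 FPKM in XY littermates and 6.43, 6.81 and 5.27 FPKM in XY controls (−0.69, limma adjusted p = 0.0637). *PDGFC* was 47.6, 44.3 and 49.7 FPKM in XY littermates, against 32.9, 36.6 and 37.5 FPKM in XY controls (0.39, limma adjusted p = 0.0583). *PDGFRA* was 44.8, 44.0 and 45.9 FPKM in XY littermates and 30.8, 35.3 and 37.3 FPKM in XY controls (0.38, limma adjusted p = 0.068). None of these 4 genes overlapped between the groups, nor did 41.8% of all loci, and their exact permutation p of 0.10 is the smallest that 3 and 3 libraries allow. With only named loci tested all 4 passed (adjusted p of 0.027 to 0.048). They also passed with litter as a random block, in a fit whose litter correlation was −0.253. Such a negative value narrows the error of a difference between groups of separate litters, so those calls add no support. *PDGFD* (0.25, adjusted p = 0.243) and *PDGFRB* (−0.09, adjusted p = 0.689, both limma) overlapped.

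Whether the difference from controls was larger in XX than in XY embryos was tested as an interaction over the 4 groups. None of the 6 genes was called by limma at either age and none had an unadjusted p under 0.05, where 0.00514% of 38909 loci were called at d37-39 and 0.115% of 22686 at d41-44. The smallest p at d41-44 was that of *PDGFRB*, whose XX difference less its XY difference was −0.35 ± 0.23 (limma adjusted p = 0.559). For *PDGFA* it was 0.10 ± 0.29 and for *PDGFC* 0.03 ± 0.11 (adjusted p of 0.884 and 0.915, limma).

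**Figure D3:**
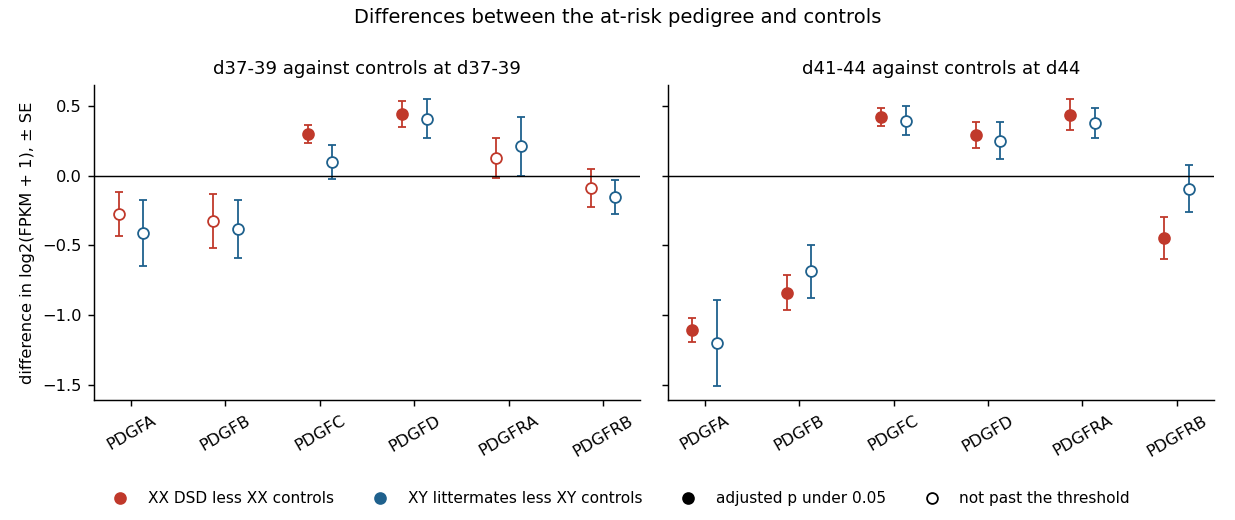
Log2(FPKM + 1) difference ± SE of the at-risk pedigree from age-matched controls for each gene (horizontal axis), XX DSD gonads less XX controls and XY littermates less XY controls, in a panel for each age; filled points passed the test. *PDGFA* lies at −1.10 in XX and −1.20 in XY embryos of d41-44, of which the first alone was called.

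The genes that process PDGF chains or pass on receptor signals were read beside the family. Of 10 genes for maturation and binding, 9 had a locus of their own. Of all loci, 13.8% were called in XX DSD gonads at d37-39 and 48.5% at d41-44, and in XY littermates 1.29% and 11.2%, and counts of list genes stand beside these shares. In XX DSD gonads at d37-39, 1 of 7 tested was higher and none lower (median 0.21): *THBS1*, a matrix glycoprotein, at 40.6 FPKM against 23.0 FPKM in XX controls (limma adjusted p = 0.0145), a call that was lost with litter as a random block (0.061), with 1 value per litter (0.437) and among d39 embryos alone (0.108). At d41-44 none was higher and 4 of 8 were lower (median −0.29), among them the convertase genes *FURIN* (6.39 FPKM in XX DSD gonads, 10.9 FPKM in XX controls, adjusted p = 0.00134) and *PCSK6* (4.17 and 7.79 FPKM, adjusted p = 0.000118) and *LRP1*, a co-receptor of *PDGFRB* (33.9 and 53.2 FPKM, adjusted p = 0.00255, all limma). In XY littermates none of 8 was called at d37-39 by limma, with 0 at an unadjusted p under 0.05, and 2 of 8 were lower at d41-44, *FURIN* (14.7 FPKM, against 23.6 FPKM in XY controls, adjusted p = 0.0369) and *LRP1* (35.1 and 59.3 FPKM, adjusted p = 0.0298).

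Of 20 genes for adaptors and enzymes that bind the receptors, 18 were tested. In XX DSD gonads 4 were higher and 2 lower at d37-39 (median 0.21), and 11 higher and 3 lower at d41-44 (median 0.31), where 13.8% and 48.5% of all loci were called. The 6 calls at d37-39 became 12 after rescaling and 0 with 1 value per litter. *PTPN11*, which encodes the phosphatase SHP2, led the higher genes of d37-39 at 22.6 FPKM in XX DSD gonads, against 15.5 FPKM in XX controls (limma adjusted p = 0.00219), and the adaptor gene *NCK2* was lower (13.5 and 23.9 FPKM, adjusted p = 4.36e-05), but neither kept a call with 1 value per litter (adjusted p of 0.3 and 0.122). At d41-44 *YES1*, a kinase of the Src family, was higher (33.4 FPKM in XX DSD gonads, 17.3 FPKM in XX controls, adjusted p = 4.15e-06) and the phospholipase gene *PLCG1* lower (31.9 and 49.4 FPKM, adjusted p = 3.47e-05, both limma). In XY littermates none of 18 was called at d37-39 by limma, with 6 at an unadjusted p under 0.05, and 1 was higher at d41-44, *RASA1*, which encodes a GTPase-activating protein of Ras (38.2 FPKM, against 22.0 FPKM in XY controls, adjusted p = 0.0421). With litter as a random block 7 adaptor genes and 4 maturation and binding genes were called in XY littermates at d41-44, against 1 and 2. That fit had the negative litter correlation given above, so these calls add no support. Without A1095, 5 adaptor genes were called at d37-39. The XY calls of *FURIN*, *LRP1* and *RASA1* were lost without a filter on low values and without the d41 embryo C3691.

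Of 9 genes that restrain the receptors, none was called in XX DSD gonads at d37-39 by limma (3 at an unadjusted p under 0.05), and 2 were higher and 3 lower at d41-44 (median 0.00), with 3 called in all after rescaling. The phosphatase gene *PTPN2* was higher there (31.8 FPKM in XX DSD gonads, 22.7 FPKM in XX controls, adjusted p = 0.000106) and *SPRY2*, an inhibitor of receptor kinase signals, lower (18.3 and 28.1 FPKM, adjusted p = 0.00724). In XY littermates none of 9 was called at either age by limma, with 0 and 3 at an unadjusted p under 0.05.

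Markers of cell types that bear PDGF receptors or ligands were counted at d41-44 as well, where 48.5% of all loci were called. Mural cell markers, genes of the pericytes and smooth muscle around vessels, summed to 74.0 to 87.0 FPKM in XX DSD gonads and 114 to 143 FPKM in XX controls, and 5 of 7 tested were lower (median −0.72), led by *MCAM* (16 and 31.4 FPKM in XX DSD and control gonads, limma adjusted p = 4.76e-05) and *NOTCH3* (14.1 and 23.9 FPKM, adjusted p = 0.000434). Endothelial markers summed to 172 to 193.6 FPKM in XX DSD gonads and 174 to 206 FPKM in XX controls, with 1 of 8 higher (*EMCN*) and 4 lower. Interstitial progenitor markers summed to 885 to 1171 FPKM in XX DSD gonads and 1043 to 1453 FPKM in XX controls, with 2 of 11 higher and 5 lower, among them *GLI1* (2.79 and 6.26 FPKM, limma adjusted p = 0.000144), a target of hedgehog signals. Pre-granulosa markers summed to 87.9 to 124 FPKM in XX DSD gonads and 216 to 227 FPKM in XX controls, and 5 of 7 were lower. At d37-39, where 13.8% of all loci were called, 1 of 7 mural genes (*NOTCH3*) and 3 of 7 pre-granulosa genes (*RSPO1*, *FOXL2* and *WNT4*) were called, all lower in XX DSD gonads, and 0 of 8 endothelial genes by limma, with 0 at an unadjusted p under 0.05. None of the 3 pre-granulosa genes was called with litter as a random block (adjusted p of 0.0718 to 0.0978), and *NOTCH3* was not called with 1 value per litter (0.203) or among d39 embryos alone (0.0591). In these bulk samples, fewer cells of a type and less RNA per cell cannot be told apart, and the part of these marker levels and of depth in the PDGF differences was not tested.

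XX and XY controls were compared for the difference between normal ovary and testis. At d37-39 *PDGFA* and *PDGFC* were higher and *PDGFRB* lower in XX controls, 3 of 6 genes called, where 26.5% of 21171 loci were called. *PDGFA* was 13.2 to 28.7 FPKM (median 21.3) in XX controls, against 10.2 to 18.0 FPKM (median 13.1) in XY controls (log2 difference 0.61 ± 0.20, limma adjusted p = 0.0349, exact permutation p = 0.0238). *PDGFC* was 55.5 to 66.0 FPKM (median 62.2) in XX controls and 44.3 to 57.1 FPKM (median 46.8) in XY controls (0.36 ± 0.070, limma adjusted p = 0.0018, exact permutation p = 0.00433). *PDGFRB* was 23.7 to 42.2 FPKM (median 28.9) in XX controls, against 38.9 to 60.6 FPKM (median 53.5) in XY controls (−0.70 ± 0.14, limma adjusted p = 0.00262, exact permutation p = 0.00433). *PDGFC* overlapped through A1088 and A1100 alone, and *PDGFRB* through A1098 and A1099 alone. For *PDGFA* the overlap was wider: XX controls A1097, A1098 and A1101 lay within the XY range, and XY controls A1091, A1096 and A1100 within the XX range. The *PDGFA* call was lost without any of A1086, A1088, A1089, A1094, A1095, A1099 or A1100 (adjusted p of 0.0518 to 0.0804) and without the filter on low values (0.0642), and among d39 embryos alone, 3 of each sex, the difference was larger and called (0.98, adjusted p = 0.0242). *PDGFRA* was 23.6 to 40.3 FPKM in XX controls and 15.9 to 46.0 FPKM in XY controls (adjusted p = 0.533). *PDGFB* was 3.43 to 4.76 FPKM in XX controls and 4.2 to 7.16 FPKM in XY controls (−0.31, limma adjusted p = 0.0908). Without A1095 or A1099 *PDGFB* was called, lower in XX controls (adjusted p of 0.0242 and 0.0374).

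At d44 *PDGFA* was 42.5, 38.8 and 46.5 FPKM in XX controls and 29.5, 17.4 and 16.2 FPKM in XY controls (1.03 ± 0.23, limma adjusted p = 0.022), and *PDGFC* 53.2, 53.0 and 54.8 FPKM, against 32.9, 36.6 and 37.5 FPKM in XY controls (0.58 ± 0.077, limma adjusted p = 0.00345). These were the 2 of 6 genes called, where 24.8% of 19081 loci were called. Both genes had groups without overlap, as had 44.2% of all loci, and so had *PDGFRA*, at 20.2, 30.4 and 25.4 FPKM in XX controls and 30.8, 35.3 and 37.3 FPKM in XY controls, which was not called (−0.44, limma adjusted p = 0.10). *PDGFRB* was 24.2, 38.4 and 30.8 FPKM in XX controls, against 36.8, 51.3 and 47.0 FPKM in XY controls (−0.53, limma adjusted p = 0.11). The smallest exact p with 3 and 3 libraries is 0.10. The *PDGFA* call was lost without A1104, A1107, A1110, A1108 or A1109 (adjusted p of 0.0598 to 0.098).

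Processing genes also differed between the control sexes. Of all loci, 26.5% were called at d37-39 and 24.8% at d44, and the counts of list genes stand beside these shares. Of the maturation and binding list, 5 of 7 were lower in XX controls at d37-39 (median −1.04) and 4 of 9 lower and 1 higher at d44 (median −0.43), whereas the median of all loci was −0.02 and 0.04. Without A1104 or without A1108, 3 genes of this list were called at d44. *SPARC*, a secreted protein that binds PDGF chains, was 636 FPKM in XX controls and 2294 FPKM in XY controls at d37-39 (limma adjusted p = 4.84e-06), and 680 and 2443 FPKM at d44 (0.00015). *FURIN* was 11.1 FPKM in XX controls, against 30.1 FPKM in XY controls at d37-39 (adjusted p = 3.23e-05), and *PCSK5*, a further convertase gene, 5.40 and 16 FPKM (4.35e-08). Of the adaptors, 3 were higher and 8 lower in XX controls at d37-39, and 1 higher and 5 lower at d44 (3 called in all without any of A1104, A1107 or A1110, and 11 without A1106), with *SRC* lower at both ages (13.9 FPKM in XX controls and 27.6 FPKM in XY controls at d37-39, adjusted p = 1.5e-06; 14.1 and 23.8 FPKM at d44, 0.00576, all limma). Among d39 embryos alone the 11 adaptor calls numbered 6 and the 6 restraint calls 3. Of the restraint list, 1 was higher and 5 lower in XX controls at d37-39, and *SPRY2* alone was called at d44, higher at 28.1 FPKM, against 16.6 FPKM in XY controls (limma adjusted p = 0.00694). Leydig cell markers, genes of the androgen-making cells of the testis, were lower in XX controls in 5 of 5 and Sertoli markers in 6 of 8 at both ages. Their part in the PDGF differences was not tested.

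Within the at-risk pedigree, XX DSD gonads were compared with XY littermates at 3 ages. At d35 *PDGFA* was lower and *PDGFRA* higher in XX DSD gonads, 2 of 6 genes, where 21.4% of 17200 loci were called. *PDGFA* was 13.5 to 20.9 FPKM (median 17.4) in 9 XX DSD gonads, against 53.3, 22.8, 20.9 and 24.1 FPKM in 4 XY littermates (−0.66 ± 0.20, limma adjusted p = 0.0281, exact permutation p = 0.0028). The library with 53.3 FPKM, C3574, stood far above its group, and without it the difference was −0.36 (adjusted p = 0.0356). *PDGFRA* was 37.6 to 69.2 FPKM (median 52.7) in XX DSD gonads and 40.7, 29.8, 28.5 and 29.5 FPKM in XY littermates (0.67 ± 0.15, limma adjusted p = 0.00576, exact permutation p = 0.0028). With litter as a fixed factor, which compares littermates, the *PDGFA* difference was −1.15 (adjusted p = 0.00272). With 1 value per litter *PDGFA* differed by −1.0 and *PDGFRA* by 0.60, neither called (adjusted p of 0.13 and 0.168), and neither was called among homozygous embryos alone (0.133 and 0.0811).

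From d37 on, the direction of *PDGFA* was the other one. At d37-39 it was 13.8 to 20.3 FPKM (median 16.9) in XX DSD gonads, against 5.37, 9.39, 15.0, 7.75 and 13.6 FPKM in XY littermates (0.75 ± 0.19, limma adjusted p = 0.0273, exact permutation p = 0.00311). *PDGFC* was 68.4 to 89.6 FPKM in XX DSD gonads and 63.9, 63.2, 48.6, 41.9 and 43 FPKM in XY littermates (0.56 ± 0.11, limma adjusted p = 0.00426), and *PDGFRB* 21.8 to 36.1 FPKM, against 48.3, 52.7, 43.3, 42.8 and 39.6 FPKM in XY littermates (−0.64 ± 0.12, limma adjusted p = 0.00336). The last 2 did not overlap, nor did 6.12% of all loci. The XY littermates C3627, C3637 and C3638, with the lower *PDGFC*, had 20913, 18965 and 19574 loci at 1 FPKM or more, against 15949 and 16818 in C3516 and C3626, and the part of this in the *PDGFC* difference was not tested. These 3 of 6 genes were called where 7.49% of 37554 loci were, with a median of −0.28 over all loci. The *PDGFA* call was lost without C3516, C3626, C3637, C3630, C3633 or C3636 (adjusted p of 0.0508 to 0.0793), and with 1 value per litter *PDGFRB* alone kept a call.

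At d41-44, 4 of 6 genes were called where 28.3% of 19768 loci were, and all 4 had groups without overlap, as had 29% of all loci, and an exact permutation p of 0.0119, the smallest possible with 6 and 3 libraries. *PDGFA* was 17.7 to 22.4 FPKM in XX DSD gonads, against 7.75, 11.9 and 5.99 FPKM in XY littermates (1.13 ± 0.17, limma adjusted p = 0.00108). *PDGFC* was 64.6 to 79.6 FPKM in XX DSD gonads and 47.6, 44.3 and 49.7 FPKM in XY littermates (0.60 ± 0.075, limma adjusted p = 0.000393). Both receptors were lower in XX DSD gonads. *PDGFRA* was 31.0 to 37.9 FPKM, against 44.8, 44.0 and 45.9 FPKM in XY littermates (−0.38 ± 0.064, limma adjusted p = 0.00204), and *PDGFRB* 18.8 to 28.4 FPKM, against 37.7, 48.9 and 39.3 FPKM in XY littermates (−0.88 ± 0.13, limma adjusted p = 0.000898). *PDGFB* had a difference of 0.00 and *PDGFD* of −0.16 (adjusted p = 0.155).

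Because embryos of both sexes came from the same litters, the sexes could also be read within 11 litters, 3 of controls and 8 of the at-risk pedigree. *PDGFC* was higher in XX than in XY embryos in 11 of 11 litters, by 1.14 to 1.78-fold (median 1.42). *PDGFA* was higher in XX embryos in 9 of 9 litters of d37 and later, by 1.19 to 2.96-fold (median 1.85), and lower in both litters of d35, with ratios of 0.326 and 0.596. *PDGFRB* was lower in XX embryos in 9 of 9 litters of d37 and later (ratios of 0.487 to 0.749, median 0.658), and in d35 litters the ratios were 1.22 and 0.631. The other genes had no single direction over litters: *PDGFRA* was higher in XX embryos in 6 of 11 litters, *PDGFD* in 5 and *PDGFB* in 2. Litters had 1 to 4 embryos of a sex, and these ratios use the same embryos as the comparisons of groups, so they are no independent evidence.

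**Figure D4:**
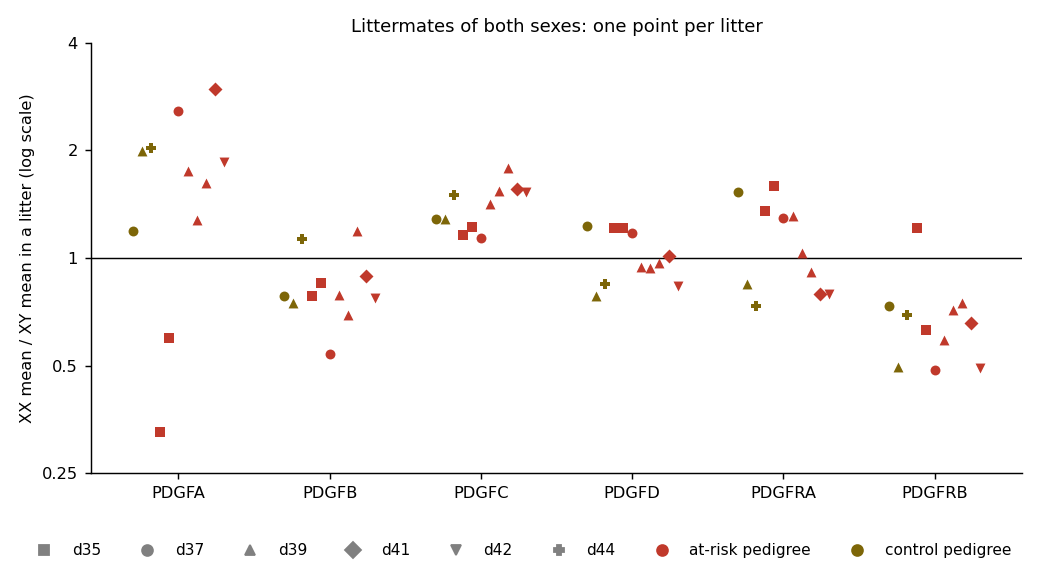
Mean FPKM of XX embryos over mean FPKM of XY embryos in a litter (vertical axis, log scale) for each gene (horizontal axis), 1 point per litter with both sexes, coloured by pedigree and with a marker for each embryonic day. All 11 points of *PDGFC* lie above 1, and *PDGFRB* lies below 1 in the 9 litters of d37 and later.

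Levels were also compared between ages within a pedigree and sex. In XX controls *PDGFB* was higher at d44, at 6.35, 6.73 and 7.78 FPKM, than at d37-39, at 3.43 to 4.76 FPKM (median 4.54), with a log2 difference of 0.56 ± 0.096 (limma adjusted p = 0.0238, exact permutation p = 0.0119). It was the 1 of 6 genes called, where 2.61% of 19500 loci were, and the call was lost without any of the 3 d44 controls A1104, A1107 and A1110 (adjusted p of 0.0592 to 0.115). *PDGFA* averaged 42.6 ± 3.85 FPKM at d44 and 21.3 ± 6.24 FPKM at d37-39 (SD, n = 3 and 6), without overlap (1.01, limma adjusted p = 0.0553). *PDGFC* averaged 53.7 ± 0.969 FPKM at d44 and 61.7 ± 3.41 FPKM at d37-39, also without overlap (−0.20, adjusted p = 0.0946). Of all loci, 13.4% did not overlap between these 2 groups. In XY controls none of the 6 was called by limma, 2 having an unadjusted p under 0.05, where 0.138% of 20260 loci were called. These were *PDGFA*, at 21.0 ± 7.35 FPKM at d44 and 13.4 ± 3.08 FPKM at d37-39 (adjusted p = 0.454), and *PDGFC*, at 35.7 ± 2.45 and 48.0 ± 4.74 FPKM (adjusted p = 0.231; SD, n = 3 and 6). The d44 controls of both sexes are 1 litter, so day and litter cannot be told apart.

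In XX DSD gonads *PDGFA* stayed within 13.5 to 22.4 FPKM over all 23 libraries of d35 to d44, whereas the 9 XX controls covered 13.2 to 46.5 FPKM. At d37-39 *PDGFRA* was lower than at d35 in XX DSD gonads, 28.3 to 47.4 FPKM (median 36.2) against 37.6 to 69.2 FPKM (median 52.7), with a difference of −0.48 ± 0.13 (limma adjusted p = 0.0416, exact permutation p = 0.0035). It was the 1 of 6 genes called, where 4.87% of 24207 loci were. The call was lost without any of 12 single libraries of the 17 (C3510, C3515, C3525, C3571, C3572, C3573, C3575, C3616, C3630, C3632, C3636 or C3642; adjusted p of 0.052 to 0.0905) and among homozygous embryos alone (−0.40, adjusted p = 0.659). *PDGFD* was 4.74 to 7.23 FPKM at d37-39 and 5.42 to 11.8 FPKM at d35 (−0.38, adjusted p = 0.104). In XY littermates *PDGFA* was 5.37, 9.39, 15.0, 7.75 and 13.6 FPKM at d37-39, against 53.3, 22.8, 20.9 and 24.1 FPKM at d35, a difference of −1.45 ± 0.34 (limma adjusted p = 0.0252, exact permutation p = 0.00794, the smallest possible with 5 and 4 libraries). It was the 1 of 6 genes called, where 11.5% of 31172 loci were and the median of all loci was 0.63. Without C3574 the difference was −1.15 (adjusted p = 0.0529), and the call was also lost without C3617, C3619, C3626 or C3637 (0.0517 to 0.0596).

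The d34 pools, 1 library a sex without replicates, are given as values only. The XX pool had 25.3 FPKM of *PDGFA*, 2.75 of *PDGFB*, 82.8 of *PDGFC* and 8.39 of *PDGFD*, with 75.4 FPKM of *PDGFRA* and 32.5 of *PDGFRB*. The XY pool had 120 FPKM of *PDGFA*, more than the 53.3 FPKM of the highest single embryo, 6.32 of *PDGFB*, 75.7 of *PDGFC* and 4.54 of *PDGFD*, with 119 FPKM of *PDGFRA* and 75.5 of *PDGFRB*. The XX pool was thus below the XY pool in *PDGFA*, *PDGFB* and both receptors. Mural markers summed to 77.2 FPKM in the XX pool and 149 FPKM in the XY pool, which was also the shallowest library, and Leydig markers to 229.2 FPKM in the XX pool and 251 FPKM in the XY pool. Their part in the difference was not tested.

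The balance between receptors was read as *PDGFRA* over *PDGFRB* in each library. At d41-44 it was 1.34 to 1.65 in XX DSD gonads at risk (mean 1.55 ± 0.118, SD, n = 6), 0.792 to 0.836 in XX controls (0.818 ± 0.0227, n = 3), 0.899 to 1.19 in XY littermates (n = 3) and 0.688 to 0.836 in XY controls (n = 3). Every XX DSD library had more *PDGFRA* than *PDGFRB*, and every XX and XY control had less. At d37-39 the ratio overlapped between XX DSD gonads (0.802 to 2.18) and XX controls (0.890 to 1.45), and XY littermates (0.676 to 0.846) and XY controls (0.408 to 1.09) lay lower on average, at 0.755 ± 0.0734 and 0.612 ± 0.245. At d35 it was 0.974 to 3.52 in XX DSD gonads, C3575 being the highest, and 0.586 to 1.8 in XY littermates, C3574 being the highest. The summed receptor level was nearly the same in XX DSD gonads and XX controls at d41-44, 56.7 ± 5.50 FPKM and 56.5 ± 12.2 FPKM. These ratios were formed from the genes above and are a description without a test.

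**Figure D5:**
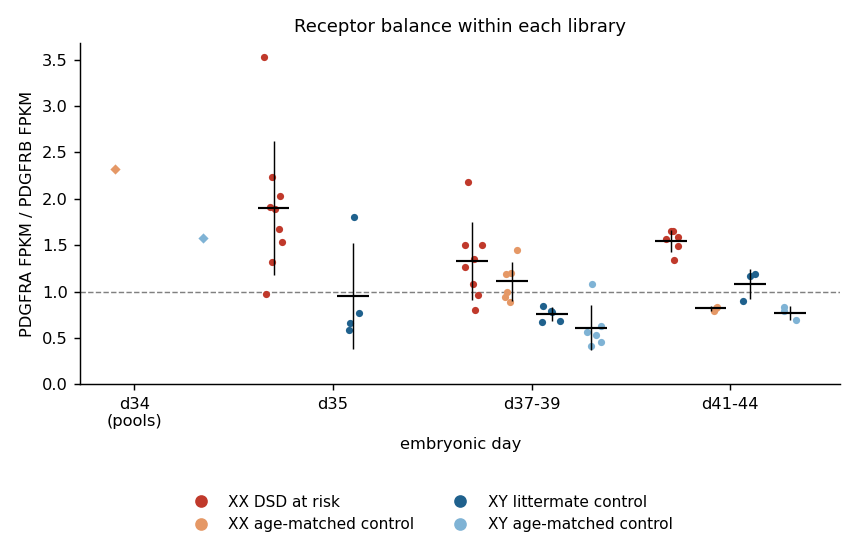
*PDGFRA* over *PDGFRB* in FPKM (vertical axis, linear, from 0, with a dashed line at 1) in every library by embryonic day (horizontal axis), 1 point per library (diamonds for the d34 pools) coloured by group, with horizontal bars at the group means and vertical bars of 1 SD. At d41-44 the 6 XX DSD libraries lie at 1.34 to 1.65 and the 3 XX controls at 0.792 to 0.836.

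The ligands were also taken as shares of their summed level. *PDGFC* held 72.2 ± 2.26% of ligand FPKM in XX DSD gonads of d41-44, against 50.1 ± 1.97% in XX controls of d44, and *PDGFA* 19.3 ± 2.18%, against 39.7 ± 1.45% in XX controls (SD, n = 6 and 3). The summed ligand level was 100.2 ± 5.74 FPKM in XX DSD gonads and 107 ± 6.17 FPKM in XX controls. At d37-39 *PDGFC* held 74.4 ± 3.04% in XX DSD gonads and 67.7 ± 5.37% in XX controls (n = 8 and 6). In the XY pool of d34 *PDGFA* held 58.1% and *PDGFC* 36.7%, the only library of the 55 in which *PDGFA* exceeded *PDGFC*.

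The genes most like each member were sought over the 53 single-embryo libraries among 11778 loci, by Pearson's r of log2(FPKM + 1); groups, litters and depth are shared by these libraries, so r is a description. *PDGFA* was most like *CDCA8* (r = 0.84), *MCM2* (0.80) and *TACC3* (0.80), which encode proteins of chromosome segregation, DNA replication and the spindle. *PDGFB* was most like *MCAM*, *ARHGEF15* and *EHD2* (0.83 each), of which *MCAM* is on the mural list above. *PDGFC* was most like *OCIAD2*, the unnamed gene ENSCAFG00000022943 and *BTBD3* (0.88 each), and *PDGFD* like the phosphatase subunit genes *PPP1CB* (0.85) and *PPP1CC* (0.84) and *FLRT3* (0.84). *PDGFRA* was most like *SNAI2*, a transcription factor gene of mesenchyme (0.81), *RECK* (0.78) and *FNIP2* (0.77), and *PDGFRB* like *PCDH1* (0.90), *FURIN* (0.90) and *EPB41L1* (0.89). Among the members themselves r was highest for *PDGFD* and *PDGFRA* (0.75) and for *PDGFC* and *PDGFD* (0.56), *PDGFB* and its receptor *PDGFRB* had 0.54, and *PDGFRA* and *PDGFRB* had −0.15.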

How the data were processed

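RNA of whole embryonic gonads was sequenced from polyA-selected, unstranded libraries with single-end reads, 55 libraries in all. The authors trimmed reads with cutadapt (1.5 in the submitters' processing notes), aligned them to CanFam3 with TopHat2 2.0.13, assembled transcripts guided by the annotation with Cufflinks 2.2.1 and deposited FPKM values per locus, normalised across libraries by Cuffnorm. The table of 58781 assembled loci was used. A second deposited table of 24581 annotated genes carries identifiers only and was not matched to the gene names. It served for the estimate of relative depth alone. Read totals are not in these tables. Relative depth was estimated from the steps between low FPKM values (under 0.15), and 55 of 55 estimates were within 0.05 (log2) of those from 3 different reference libraries.

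Groups were taken from the submitters' labels, and 3 embryos labelled d41 were kept there although another listing of the study differs. Loci whose mean reached 1 FPKM in 1 or both of the groups were compared as log2(FPKM + 1) with limma 3.58.1 (trend; R 4.3.3) without a block. P-values were adjusted by Benjamini-Hochberg over all loci tested in each of 15 comparisons, and loci with an adjusted p under 0.05 were called. Each gene was also compared by a two-sided exact permutation test over libraries (numpy 2.4.6). The comparisons share libraries: those of XX DSD gonads, of control sexes and of control ages at the oldest stage rest on the same 3 XX controls. Embryos of a litter are not independent, and litter was entered in alternatives. Named are the 6 PDGF genes, the 3 loci most correlated with each (median of at least 1 FPKM), and up to 3 genes of the lowest adjusted p from each of 14 gene lists. The result of 1 gene of these lists is not reported here. The members and lists were chosen with earlier results of these data known. Alternatives were a pseudocount of 0.1, no filter, litter as a random block, a fixed factor or 1 value, homozygous embryos alone, d39 alone, the d41 embryos moved or left out, each library left out, and, chosen after seeing the data, rescaling to a common median of named loci and testing named loci only.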

Additional observations from a re-analysis of the deposited data

Results flagged for a closer look

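Some libraries stood far from the rest of their group by Dixon's criterion, which was applied to 42 groups of values and flags about 1 in 20 by chance; it flagged 5. In XY littermates of d35, C3574 was the highest library for *PDGFA* (53.3 FPKM) and for *PDGFRA* (40.7 FPKM). Among XX controls of d37-39, A1097 had the lowest *PDGFB* (3.43 FPKM) and A1088 the lowest *PDGFC* (55.5 FPKM). Among XY controls of d37-39, A1100 had the highest *PDGFC* (57.1 FPKM).

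The d34 pools, which no comparison used, were above every later control of their sex for several genes. In the XX pool these were *PDGFC* (82.8 FPKM, against at most 66.0 FPKM in later XX controls), *PDGFD* (8.39 and 4.98 FPKM) and *PDGFRA* (75.4 and 40.3 FPKM). In the XY pool they were *PDGFA* (120 FPKM, against at most 29.5 FPKM in later XY controls), *PDGFC* (75.7 and 57.1 FPKM), *PDGFRA* (119 and 46.0 FPKM) and *PDGFRB* (75.5 and 60.6 FPKM).

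The direction of the sex difference of *PDGFA* within litters turned with age. The XX over XY ratio was at least 1.19 in every litter of d37 and later and at most 0.596 in the litters of d35, and this difference between ages was not tested.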

How the results depend on the processing

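No gene of the family changed direction with a call under any alternative. With 1 value per litter, called genes of the 6 numbered 0 for XX DSD gonads against XX controls at d37-39 (2 in the main analysis), 0 against XY littermates at d35 (2) and 1 at d37-39 (3), and 0 for each age difference of the at-risk pedigree (1 each). Among homozygous embryos alone they numbered 0 at d35 between the sexes and 0 for both age differences. Over all comparisons fitted that way, 5 calls of the 6 genes were lost, and 1 was lost among d39 embryos alone. For XY littermates at d41-44 (0 in the main analysis) the count was 1 with a pseudocount of 0.1 (*PDGFA*, limma adjusted p = 0.0449), 2 after rescaling, 4 with named loci only and 4 with litter as a random block. Without the filter it was 1 between the sexes at d35 (*PDGFA* lost) and 0 for the ages of XX controls and of XX DSD gonads. Named loci only gave 2 for the ages of XX controls and 2 for those of XY littermates. The random litter block gave 0 for the ages of XX controls, XX DSD gonads and XY littermates, and rescaling gave 0 for those of XX DSD gonads. The cause was not tested; 1 value per litter has fewer values by construction.

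Leaving out each library in turn gave 2 to 2 called genes for XX DSD gonads against XX controls at d37-39 and 4 to 5 at d41-44, 0 to 1 and 0 to 0 for XY littermates, 2 to 3 and 1 to 2 between control sexes, 2 to 2, 2 to 3 and 4 to 4 between XX DSD gonads and XY littermates at the 3 ages, 0 to 2 for the ages of XX controls, 0 to 0 of XY controls, 0 to 2 of XX DSD gonads and 0 to 1 of XY littermates, and 0 to 0 for the interactions. The number of all loci called also moved. For XX DSD gonads against XX controls at d37-39 it was 3470, 1361 with the random litter block and 5 with 1 value per litter. For XY littermates at d37-39 it was 416, with 798 at a pseudocount of 0.1, 63 without the filter, 1264 with named loci only, 36 with the random block, 5 with 1 value per litter, 140 among d39 embryos and 702 with the d41 embryos added. For XY littermates at d41-44 it was 2146, with 40 without the filter, 3802 with named loci only, 6310 with the random block and 88 without the d41 embryo. Between the sexes it was 5609 in controls at d37-39 and 3264 at d39 alone, and in the at-risk pedigree 21.4% of 17200 loci at d35, with 759 at 1 value per litter and 1536 with litter as a fixed factor, 2814 and 1571 (1 value per litter) at d37-39, and 5598 and 3435 (fixed factor) at d41-44. For ages it was 508 in XX controls, with 227 without the filter, 779 with named loci only and 148 with the random block, 1178 in XX DSD gonads, with 430 (random block), 82 (1 value per litter) and 27 (homozygous alone), and 11.5% of 31172 loci in XY littermates, with 1542 and 366 (random block and 1 value per litter). The interactions had 2 loci at d37-39, with 1 at a pseudocount of 0.1 and 8 at d39 alone, and 26 at d41-44, with 89 without the filter and 55 without the d41 embryos. Deviations within litters correlated by 0.338 for XX DSD gonads against XX controls at d37-39 and by −0.253 for XY littermates against XY controls at d41-44. The negative value narrows the error of that difference, so the random-block calls there add no support. Replicate numbers pair no embryos across groups, and no paired analysis by number was possible because of that. The sexes were paired by litter instead: with litter as a fixed factor, all 24 results of the 6 genes kept their side of the threshold. Called results also kept their direction. A litter block could not be fitted for the control sexes at d44, which are 1 litter. Nor could the planned scaling to the median of all loci, which is 0 in most libraries. The gene comparisons were not run on the annotated table. The shallow d41-44 libraries of the at-risk pedigree limit the precision of low genes such as *PDGFB* and *PDGFD*.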

Other observations

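Markers of further cell types were counted in the same comparisons. In XX DSD gonads at d41-44, 1 of 4 Leydig genes was higher than in XX controls (*LHCGR*, the luteinising hormone receptor gene, log2 difference 0.61, limma adjusted p = 0.0239), and 1 of 7 Sertoli genes was higher and 2 lower. In that comparison 48.5% of all loci were called, so these counts by themselves say little about either cell type. The summed Leydig markers were 363 to 1938 FPKM in XX DSD gonads and 307 to 491 FPKM in XX controls, with overlap, against 7936 to 8836 FPKM in XY controls of d44. At d37-39, where 13.8% of all loci were called, none of the 4 Leydig or 7 Sertoli genes was called by limma in XX DSD gonads, with 2 and 1 at an unadjusted p under 0.05. Among d39 embryos alone the steroid synthesis genes *CYP11A1* (1.36, limma adjusted p = 0.042) and *CYP17A1* (1.58, adjusted p = 0.0337) were called higher in XX DSD gonads. The summed Leydig markers were then 615 to 1890 FPKM in 6 XX DSD gonads and 388 to 591 FPKM in 3 XX controls of 1 litter, without overlap. The 3 XX controls of d37 had 744, 1461 and 2326 FPKM. Over d37-39 the sums of XX DSD gonads thus lay inside the control range. The *LHCGR* call at d41-44 was lost without the filter on low values (adjusted p = 0.0502), with litter as a random block (0.0527) and without the d41 embryos (0.47, adjusted p = 0.0533).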
